A study of Mus musculus with 20 samples.

Results

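The gene sets described here are those named for Polycomb proteins or for methylation of lysine 27 of histone H3 (H3K27). They were selected by their names, as every set whose name contains PRC1, PRC2, EZH2, H3K27, SUZ12, _EED_, POLYCOMB or BMI1 in the authors' deposited gene set enrichment tables. There were 36 such sets among 3886 set names in all 7 comparisons. Of these, 35 were listed in every comparison, and MIKKELSEN_MEF_HCP_WITH_H3K27ME3, with 492 genes, was listed for the cell lines alone. No enrichment value entered the rule, but the theme itself was chosen with the enrichment values known, so the values below are a description.

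Polycomb repressive complex 2 (PRC2) places the H3K27 methyl mark through its catalytic subunit EZH2, together with the core subunits SUZ12 and EED. Polycomb repressive complex 1 (PRC1), which includes BMI1 or its paralogue PCGF2, acts at many of the same promoters. Trimethylated H3K27 (H3K27ME3) marks promoters of developmental genes that a cell keeps silent, and together with H3K4 trimethylation (H3K4ME3), a mark of active promoters, it makes the bivalent state known from embryonic stem cells. In blood formation EZH2 and BMI1 are known for their roles in stem and progenitor cells.

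The data were RNA-seq of C57BL/6 mouse material, in 20 libraries. Myeloid cells of adult mice were taken from bone marrow of B16F10 tumour-bearing (3 libraries), YUMM3.3 tumour-bearing (2 libraries) and healthy animals (3 libraries), and from spleen of the same 3 kinds of animal (2 libraries each). The cultured lines YUMM3.3 and B16F10, both mouse melanoma lines, had 3 libraries each after 4 days in culture. The myeloid cells were isolated with a CD3e depletion kit, which removes T cells, and the labels state no further sort. The tables list gene sets and no genes, so the labelled cell type could not be checked against its markers here, and no library depth is known. In such bulk samples fewer cells of a type and less RNA per cell cannot be told apart.

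Each set has 1 value per comparison, a normalised enrichment score (NES), which is the set's enrichment score divided by the mean score of permuted data. NES is given below as positive where the set's genes were on balance higher in the first-named group, and as negative where they were lower. This sign was taken from the label of each report, also where a value is called deposited. For the sets described here, the sign deposited in the comparisons against healthy mice was the opposite. A set is called at a deposited false discovery rate q (FDR q) below 0.05. There is no value per library, so NES carries no SD. How far animals or cultures of a group differ from each other is not measured by the deposited q-values. The 3 comparisons within a tissue share libraries, and gene sets share genes, so neither the comparisons nor the sets are independent of each other.

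The 36 sets fell into 3 kinds. A single set, REACTOME_PRC2_METHYLATES_HISTONES_AND_DNA (46 genes), describes the complex and its substrates, and it is known to hold many core histone genes. Target-gene sets numbered 31, of which 25 are named for an H3K27 mark at promoters and 6 for a Polycomb protein or its loss. The names of 4 sets end in DN and are given apart. Of the 31 target sets 16 were called in at least 1 comparison of the authors' deposited tables, a share of 51.6%, against 55.6% of all 3886 sets, so the share called was near the background. Over all 36 sets, 16 were called in no comparison.

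**Figure D1:**
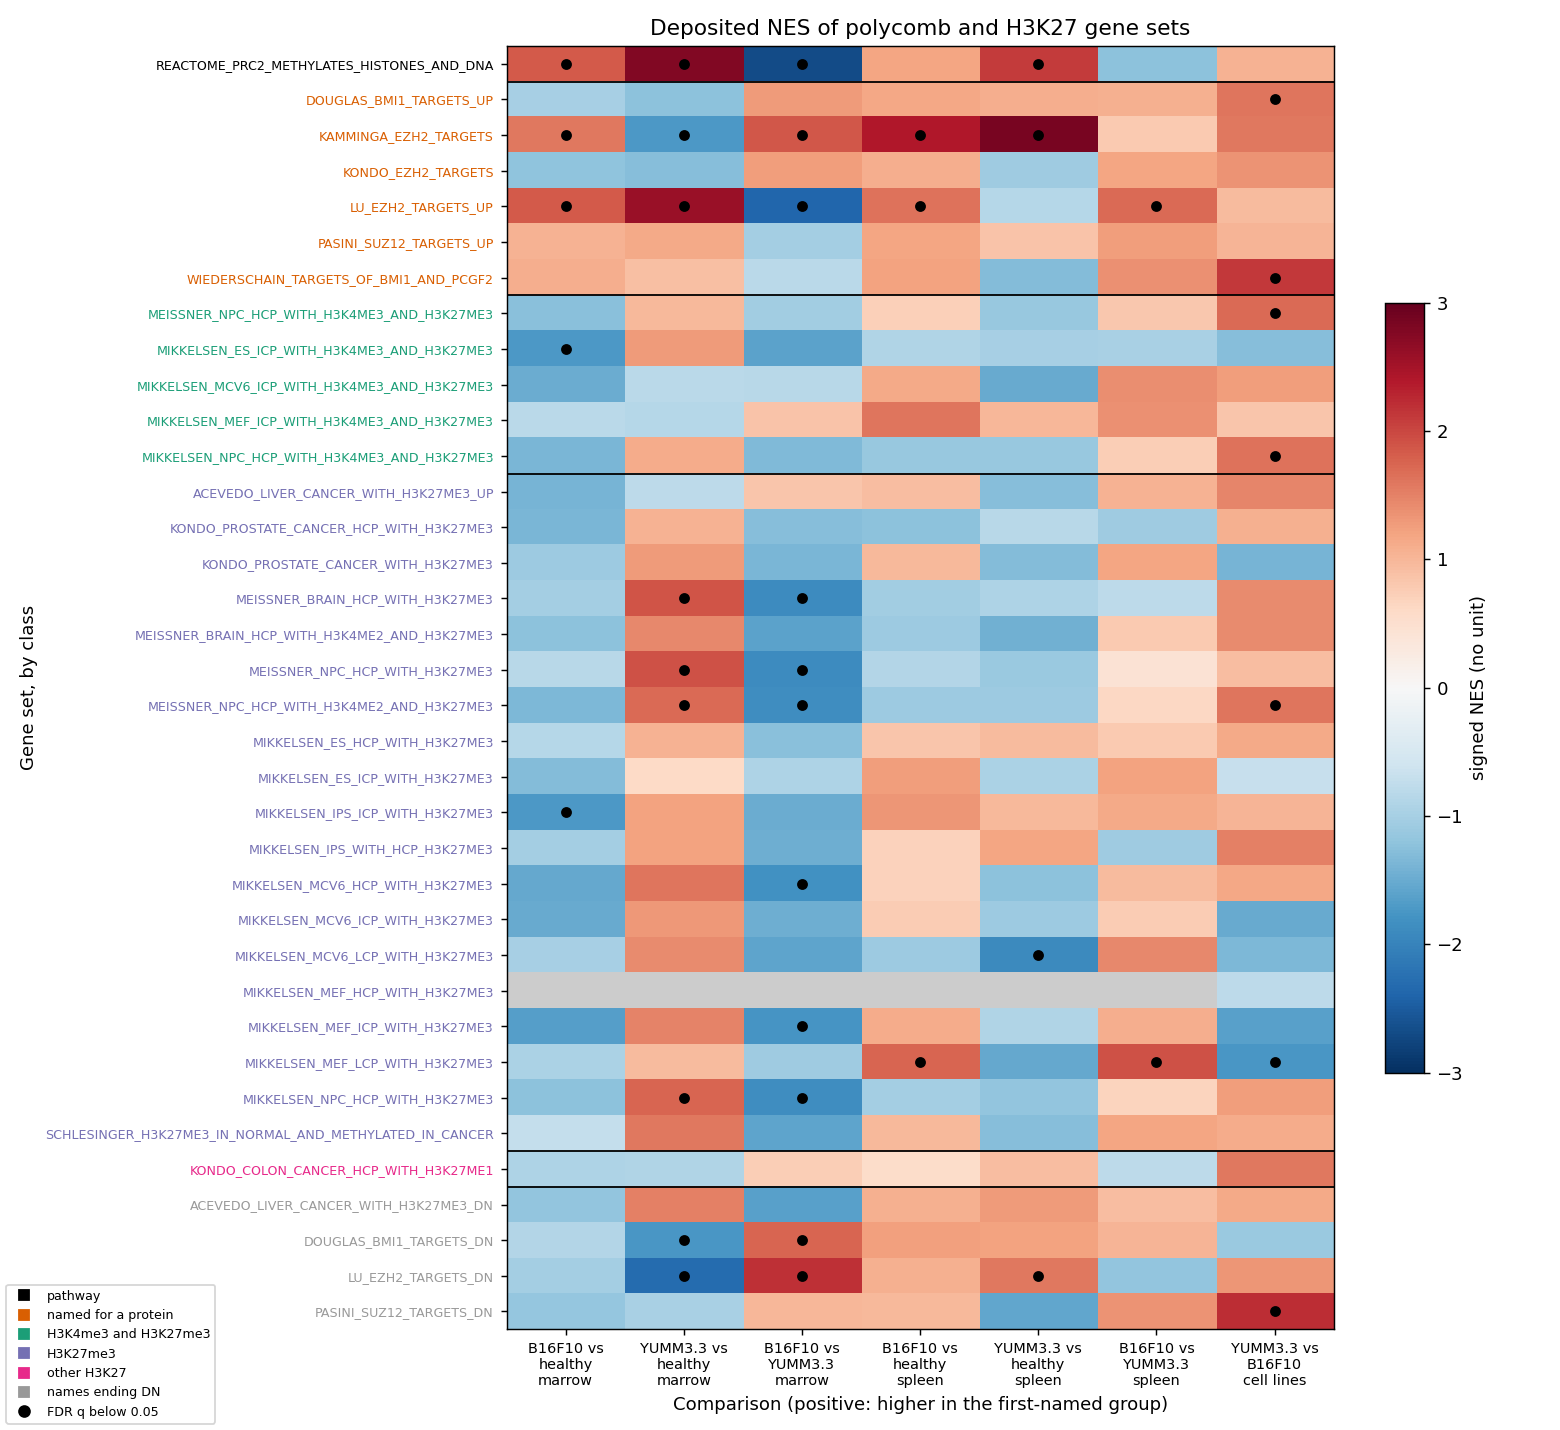
Signed NES from the authors' deposited tables for the 36 gene sets (rows, by kind) in the 7 comparisons (columns), with calls at FDR q below 0.05 marked. In bone marrow most of the promoter mark sets are negative for B16F10-bearing against healthy mice and positive for YUMM3.3-bearing against healthy mice.

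The PRC2 pathway set was higher in myeloid cells of tumour-bearing mice in bone marrow, and higher for YUMM3.3-bearing mice than for B16F10-bearing mice. In the authors' deposited tables its NES was 1.83 for B16F10-bearing against healthy bone marrow (FDR q 0.00851) and 2.77 for YUMM3.3-bearing against healthy bone marrow (FDR q 0). B16F10-bearing against YUMM3.3-bearing bone marrow gave an NES of -2.67 (FDR q 0) in the deposited table. In spleen the deposited NES was 2.09 for YUMM3.3-bearing against healthy mice (FDR q 0.000129). It was 1.18 for B16F10-bearing against healthy spleen (FDR q 0.388) and -1.22 for B16F10-bearing against YUMM3.3-bearing spleen (FDR q 0.429), neither of them called. YUMM3.3 against B16F10 cells had a deposited NES of 1.05 (FDR q 0.514).

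By NES the PRC2 set was 27th of the 2060 sets with a positive score in YUMM3.3-bearing against healthy bone marrow, and 411th of the 2182 in B16F10-bearing against healthy bone marrow. Its leading edge, the genes listed before the running score reaches its maximum, differed in depth between these comparisons. In YUMM3.3-bearing against healthy bone marrow 54% of its genes lay in the top 5% of the ranked gene list, per the authors' deposited table. In B16F10-bearing against healthy bone marrow a leading edge of the same size, 54% of its genes, reached 23% of the list.

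Other Reactome sets known to hold core histone genes gave scores in the same range. There were 14 such sets, chosen by name patterns. Of these, 10 are named for chromatin, nucleosomes, DNA methylation, histone modification or control of ribosomal RNA genes, and 4 for other processes (amyloid fibres, meiotic recombination and, in a pair of sets, senescence). In the authors' deposited tables all 14 were called higher in YUMM3.3-bearing than in healthy bone marrow (NES 2.11 to 2.85), and all 14 were called lower in B16F10-bearing than in YUMM3.3-bearing bone marrow (NES -2.84 to -2.02). For B16F10-bearing against healthy bone marrow 9 of the 14 were called higher, and the 14 had NES of 1.38 to 2.47. In spleen 12 of 14 were called higher for YUMM3.3-bearing against healthy mice and 3 of 14 for B16F10-bearing against healthy mice, while for B16F10-bearing against YUMM3.3-bearing mice 1 was called higher and 3 lower. None of the 14 was called between the cell lines, where 2 had a deposited nominal p below 0.05 in the positive direction. The NES of the PRC2 set lay inside the range of these 14 sets in all 7 comparisons, and inside that of the 10 alone. The range of the 14 was wide and crossed 0 for B16F10-bearing against healthy spleen (-1.27 to 2.00). It also did for B16F10-bearing against YUMM3.3-bearing spleen (-2.13 to 1.74) and between the lines (-0.79 to 1.51). Lying inside it says little in those comparisons. The member genes are not listed, so the part that histone genes had in the PRC2 score was not tested.

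**Figure D2:**
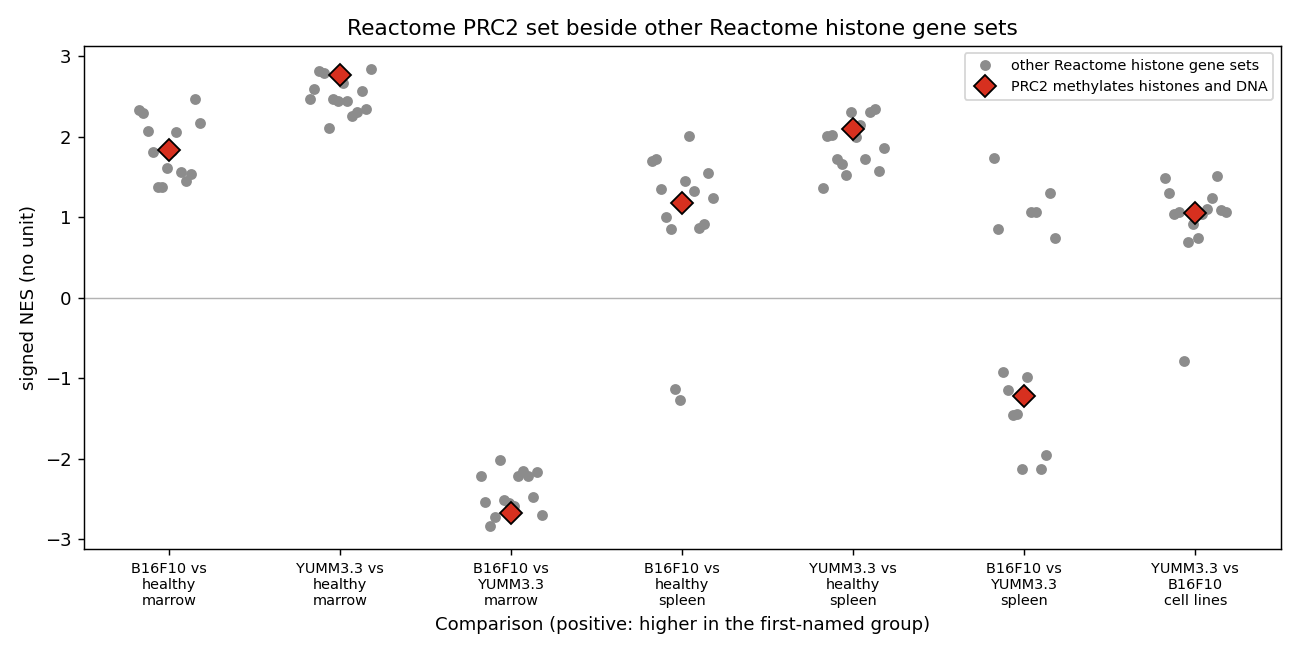
Signed NES of the PRC2 pathway set beside the 14 Reactome sets that hold core histone genes, by comparison, from the authors' deposited tables. The PRC2 set lies inside the range of the histone gene sets in each of the 7 comparisons. That range crosses 0 for B16F10-bearing against healthy spleen, for B16F10-bearing against YUMM3.3-bearing spleen and between the lines.

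Against this, the target-gene sets had a median NES on the opposite side of 0 for B16F10-bearing against healthy bone marrow. Of 30 target sets listed there, 26 had a negative NES as signed here, or 86.7%, against 43.8% of all 3883 sets. Their median NES was -1.14, while that of all sets was 0.96. Calls were few: 2 of 30 target sets were called higher, where 20.1% of all sets were, and 2 were called lower, where 5.0% of all sets were. The 2 called lower, 6.67% of the target sets, are thus near the background share.

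All 24 promoter mark sets listed had a negative NES in B16F10-bearing against healthy bone marrow, from -1.73 to -0.72 in the deposited table. The 2 called lower were both sets of promoters with intermediate CpG content (ICP), defined in pluripotent mouse cells. MIKKELSEN_ES_ICP_WITH_H3K4ME3_AND_H3K27ME3, bivalent promoters of embryonic stem cells, was the lowest target set (NES -1.73, deposited FDR q 0.0398). MIKKELSEN_IPS_ICP_WITH_H3K27ME3, from induced pluripotent cells, followed it (NES -1.72, deposited FDR q 0.0418). HADDAD_B_LYMPHOCYTE_PROGENITOR, a set of B-lineage progenitor genes that is no member, had the most negative NES of all sets in this comparison, -2.74 in the deposited table. It was also negative for YUMM3.3-bearing against healthy bone marrow (NES -1.65, deposited FDR q 0.0544), where most mark sets were positive, and its part in these scores was not tested.

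For YUMM3.3-bearing against healthy bone marrow the mark sets were mostly positive. The deposited NES, as signed here, was positive for 20 of the 24 mark sets, or 83.3%, against 53.1% of all sets. Of the 30 target sets 5 were called higher, or 16.7%, where 9.68% of all sets were, and 1 was called lower, where 6.52% of all sets were. The median NES was 1.16 for the target sets and 0.74 for all sets.

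Of the 5 sets called higher, 4 are promoters with high CpG content (HCP) that carry H3K27 trimethylation in neural precursor cells (NPC) or in brain. MEISSNER_NPC_HCP_WITH_H3K27ME3 (69 genes) had an NES of 1.91 (deposited FDR q 0.00400). MEISSNER_BRAIN_HCP_WITH_H3K27ME3 (240 genes) had 1.89 (deposited FDR q 0.00485). MIKKELSEN_NPC_HCP_WITH_H3K27ME3 (299 genes) had 1.74 (deposited FDR q 0.0209). MEISSNER_NPC_HCP_WITH_H3K4ME2_AND_H3K27ME3 (299 genes), promoters that also carry dimethylated H3K4, had 1.70 (deposited FDR q 0.0292). The same 4 sets had NES of -0.82, -1.03, -1.22 and -1.36 for B16F10-bearing against healthy bone marrow in the deposited table, none of them called.

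B16F10-bearing against YUMM3.3-bearing bone marrow compares myeloid cells of mice with either tumour directly. Of 30 target sets, 7 were called lower in the authors' deposited table, or 23.3%, where 8.4% of all sets were, and 1 was called higher, where 8.09% of all sets were. The median NES was -1.34 for the target sets and 0.72 for all sets. Of the 24 mark sets 21 had a negative NES and 6 were called lower. Those 6 included the same 4 neural sets, with deposited NES of -1.89 for MEISSNER_NPC_HCP_WITH_H3K27ME3, -1.89 for MEISSNER_BRAIN_HCP_WITH_H3K27ME3, -1.87 for MIKKELSEN_NPC_HCP_WITH_H3K27ME3 and -1.86 for MEISSNER_NPC_HCP_WITH_H3K4ME2_AND_H3K27ME3. The other 2 were MIKKELSEN_MCV6_HCP_WITH_H3K27ME3 (NES -1.83), from a partly reprogrammed line, and MIKKELSEN_MEF_ICP_WITH_H3K27ME3 (NES -1.77), from embryonic fibroblasts (MEF).

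**Figure D3:**
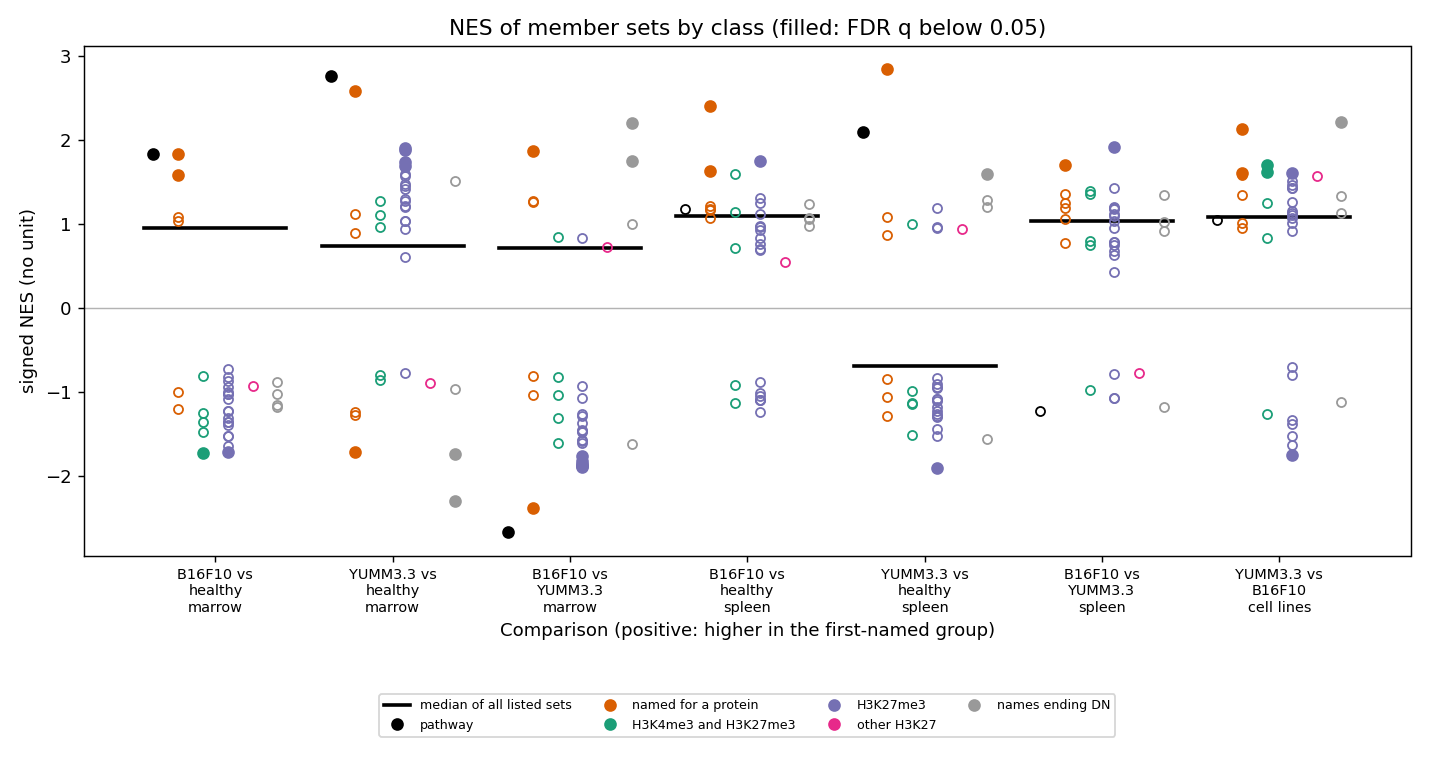
Signed NES (y axis, no unit) of all 36 sets by kind (colour) and comparison (x axis), from the authors' deposited tables, with 1 point per gene set, filled where FDR q is below 0.05, and a black bar at the median of all listed sets. The mark sets are all below 0 for B16F10-bearing against healthy bone marrow, and the sets named for a protein lie on both sides of 0 there.

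The leading edges of these called mark sets reached far down the ranked list. In YUMM3.3-bearing against healthy bone marrow the 4 called mark sets had 57% to 62% of their genes in the leading edge, at 39% to 43% of the ranked list, in the deposited table. The median list share of all 376 sets called higher there was 11%, and only 9 of them, or 2.39%, reached 35% of the list or more. In B16F10-bearing against YUMM3.3-bearing bone marrow the 6 called mark sets had 56% to 61% of their genes in the leading edge, at 39% to 44% of the list. Of all 326 sets called lower there, 15, or 4.60%, reached 35% of the list, a mark chosen after the values were seen. The scores of these mark sets thus came from many genes spread over a wide stretch of the list, while the called histone gene sets peaked at a median of 7% and 8% of the list in those comparisons.

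Sets of promoters without the mark had scores of the same signs in bone marrow. The tables list 6 sets named for promoters with unmethylated H3, and none of them was called in any comparison. The deposited NES, as signed here, was negative for all 6 in B16F10-bearing against healthy bone marrow (-1.63 to -0.96). All 6 were positive for YUMM3.3-bearing against healthy bone marrow (0.89 to 1.27) and negative for B16F10-bearing against YUMM3.3-bearing bone marrow (-1.36 to -0.99). At a deposited nominal p below 0.05 there were 2 of them in the first comparison, none in the second and 2 in the third, and at most 2 in any of the others. The direction was therefore also seen in promoter sets that are not defined by H3K27 methylation. Deep leading edges were also seen in these 6 sets, at a median of 32% of the list for YUMM3.3-bearing against healthy bone marrow. The median was 36% for B16F10-bearing against YUMM3.3-bearing bone marrow. In each of those comparisons 3 of the 6 reached 35% of the list, against 65% and 66.7% of the mark sets of the same sign. The 9 sets of H3K4ME3 promoters with no H3K27 in their name include 1 bivalent set whose name misspells the mark. Their median NES was -0.72, 0.97 and -0.97 in the 3 bone marrow comparisons, in the same order. A negative NES was found for 5, 2 and 6 of the 9, against 43.8%, 46.9% and 48.3% of all sets.

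In spleen the mark sets gave few calls. For B16F10-bearing against healthy spleen 3 of 30 target sets were called higher, or 10.0%, where 16.6% of all sets were, and none was called lower, where 1.6% of all sets were. No target set had a deposited nominal p below 0.05 in the lower direction. The median NES was 0.88 for target sets and 1.09 for all sets. The lowest target set was KONDO_PROSTATE_CANCER_HCP_WITH_H3K27ME3 (NES -1.24, deposited FDR q 0.395).

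For YUMM3.3-bearing against healthy spleen 1 target set was called higher, where 15.6% of all sets were, and 1 was called lower, where 5.31% of all sets were. The deposited NES, as signed here, was negative for 19 of the 24 mark sets, or 79.2%, against 51.7% of all sets. The set called lower was MIKKELSEN_MCV6_LCP_WITH_H3K27ME3 (20 genes), promoters with low CpG content (LCP), at an NES of -1.90 (deposited FDR q 0.0159). The 4 neural sets that were called higher in YUMM3.3-bearing bone marrow had deposited NES of -1.18 to -0.94 in this spleen comparison, none of them called. All 6 unmethylated H3 sets were negative here too (NES -1.68 to -0.88). So were all 9 H3K4ME3 sets with no H3K27 in their name, none of them called. Their median NES was -1.36, against -1.10 for the mark sets, and 5 of the 9 had a deposited nominal p below 0.05. All 5 sets for the embryonic stem cell programme had a positive NES for YUMM3.3-bearing against healthy spleen, with 3 called higher. They were also positive for B16F10-bearing against healthy spleen, as 74.7% of all sets were, with 2 called higher. In bone marrow none of those 5 was called, and 1 had a deposited nominal p below 0.05 in B16F10-bearing against healthy and in B16F10-bearing against YUMM3.3-bearing mice.

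For B16F10-bearing against YUMM3.3-bearing spleen 2 of 30 target sets were called higher, or 6.67%, where 9.63% of all sets were. None was called lower, where 1.47% of all sets were, and none had a deposited nominal p below 0.05 in that direction. MIKKELSEN_MEF_LCP_WITH_H3K27ME3 (54 genes) was the highest target set at an NES of 1.92 (deposited FDR q 0.00565). The lowest target set was again KONDO_PROSTATE_CANCER_HCP_WITH_H3K27ME3 (NES -1.08, deposited FDR q 0.586).

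MIKKELSEN_MEF_LCP_WITH_H3K27ME3 was called in 2 of the 3 spleen comparisons. Its deposited NES was 1.75 for B16F10-bearing against healthy spleen (FDR q 0.0156) and -1.53 for YUMM3.3-bearing against healthy spleen (FDR q 0.101). In bone marrow it was -0.94 for B16F10-bearing against healthy mice, 0.94 for YUMM3.3-bearing against healthy mice and -1.07 for B16F10-bearing against YUMM3.3-bearing mice, none of them called. The signs in spleen were thus the reverse of those in bone marrow for this set.

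The tissues share no library, so their scores can be set side by side. For YUMM3.3-bearing against healthy mice 7 of 30 target sets had the same sign in bone marrow and spleen and 23 had opposite signs, a same-sign share of 23.3%, against 43.0% of all sets. For B16F10-bearing against healthy mice 13 of 30 had the same sign, or 43.3%, against 70.2% of all sets. For B16F10-bearing against YUMM3.3-bearing mice 9 of 30 did, or 30%, against 44.3%. The Pearson correlation of the target sets between the tissues was -0.47, 0.43 and 0.09 in these 3 comparisons. Over all sets it was -0.17, 0.56 and -0.18. For B16F10-bearing against healthy mice the order of the sets was thus partly shared, although many signs differed. Called in the same direction in both tissues were 2 sets for B16F10-bearing mice, KAMMINGA_EZH2_TARGETS and LU_EZH2_TARGETS_UP, and no target set for YUMM3.3-bearing mice. The share of all sets called in both tissues was not computed, so these counts have no background beside them and nothing is read from them. For B16F10-bearing against healthy mice 20.1% of all sets were called higher in bone marrow and 16.6% in spleen. For YUMM3.3-bearing mice these shares were 9.68% and 15.6%, and 6.52% and 5.31% were called lower. The sets share genes, and the labels do not say whether a mouse gave both tissues.

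**Figure D4:**
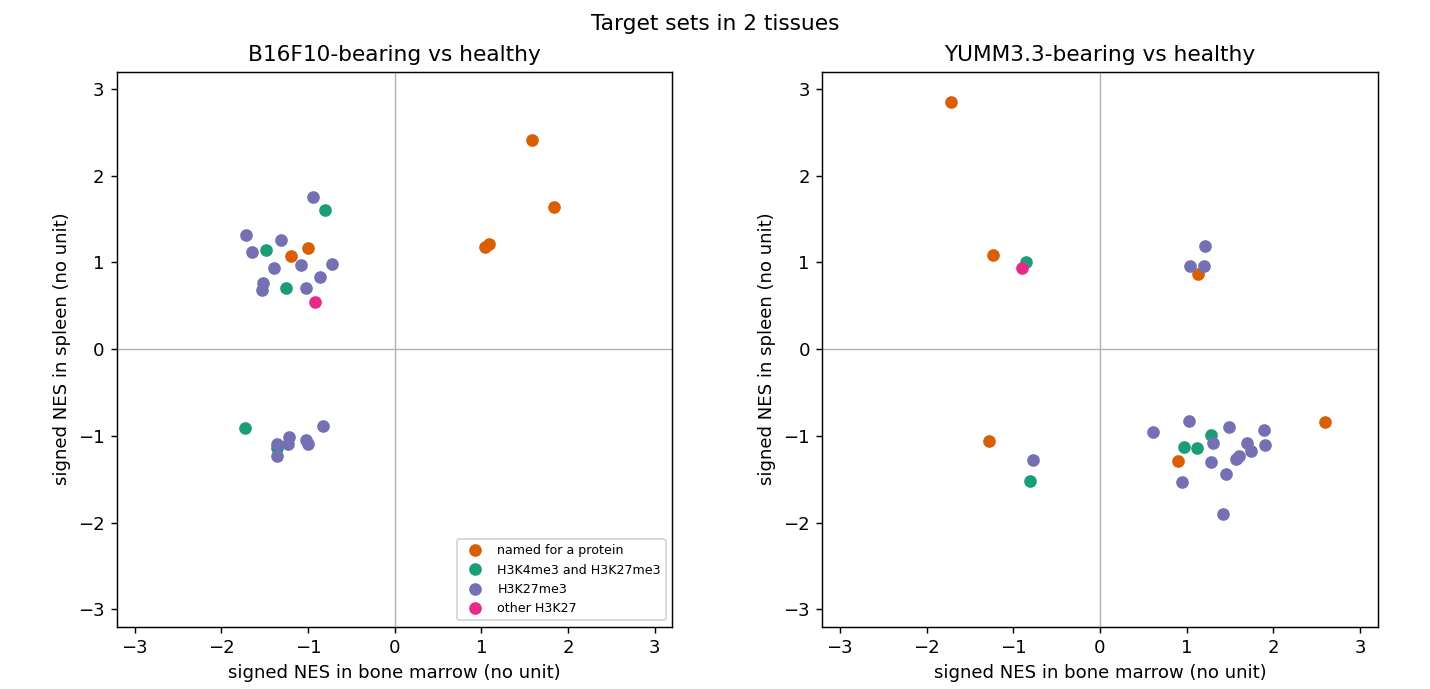
Signed NES of the target-gene sets in bone marrow (x axis) against spleen (y axis) for B16F10-bearing and YUMM3.3-bearing mice against healthy mice, from the authors' deposited tables, 1 point per gene set. For YUMM3.3-bearing mice 23 of the 30 sets have opposite signs in the tissues.

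Between the cultured lines the mark sets divided by CpG content. For YUMM3.3 against B16F10 cells 5 of 31 target sets were called higher, or 16.1%, where 11.8% of all 3871 sets were, and 1 was called lower, where 1.47% of all sets were. A positive NES was deposited for 12 of the 13 HCP mark sets (median 1.42), against 3 of the 7 ICP mark sets (median -0.70) and neither of the LCP mark sets (NES -1.34 and -1.75). Of all sets 73.3% were positive there, with a median NES of 1.08. Of the 25 mark sets 3 were called higher, or 12.0%, which was near the 11.8% of all sets. These 3 were all neural. MEISSNER_NPC_HCP_WITH_H3K4ME3_AND_H3K27ME3 had an NES of 1.71 (deposited FDR q 0.0175). MIKKELSEN_NPC_HCP_WITH_H3K4ME3_AND_H3K27ME3 had 1.62 (deposited FDR q 0.0366), and MEISSNER_NPC_HCP_WITH_H3K4ME2_AND_H3K27ME3 had 1.61 (deposited FDR q 0.0404). The set called lower was MIKKELSEN_MEF_LCP_WITH_H3K27ME3 (NES -1.75, deposited FDR q 0.0353).

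The 3 mark sets called higher in the lines had 11% to 19% of their genes in the leading edge, at 11% or 12% of the ranked list, in the deposited table. All 458 sets called higher there had medians of 37% of their genes and 10% of the list, so the share of genes was low and the depth in the list was not. Fibroblast sets stood mostly on the other side: 3 of the 4 MEF mark sets had a negative NES, and MIKKELSEN_MEF_HCP_WITH_H3K27ME3, the set listed for the lines alone, had -0.79. The neural mark sets are all HCP sets and the MEF mark sets are mostly ICP or LCP sets, so these groupings largely overlap. Of the 6 HCP mark sets that are not neural, 5 had a positive NES (median 1.14). Of the 9 H3K4ME3 sets with no H3K27 in their name 7 had a negative NES, and the LCP set among them from neural precursors, MIKKELSEN_NPC_LCP_WITH_H3K4ME3, was called lower (NES -2.10, deposited FDR q 0).

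**Figure D5:**
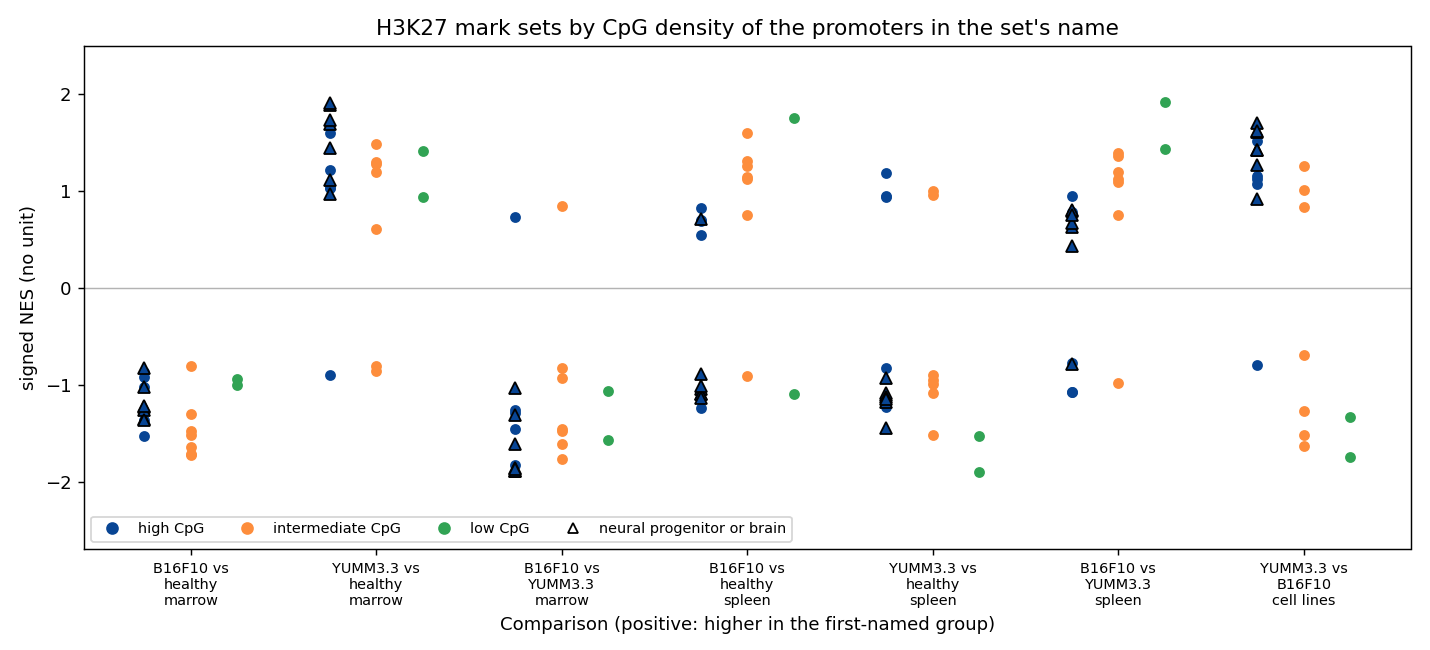
Signed NES of the promoter mark sets by CpG content (high, intermediate, low) and comparison, from the authors' deposited tables, 1 point per gene set, with triangles for sets from neural precursors or brain. Between the cell lines 12 of 13 high-CpG sets are positive and both low-CpG sets are negative.

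Among the sets named for a protein, KAMMINGA_EZH2_TARGETS (39 genes), putative EZH2 targets from work on haematopoietic stem cells, was called in 5 of the 7 comparisons. Its NES in the authors' deposited tables was 2.41 for B16F10-bearing and 2.85 for YUMM3.3-bearing against healthy spleen (FDR q 0 in both), the highest of the target sets in each. In bone marrow it was 1.58 for B16F10-bearing against healthy mice (FDR q 0.0468), -1.72 for YUMM3.3-bearing against healthy mice (FDR q 0.0370) and 1.87 for B16F10-bearing against YUMM3.3-bearing mice (FDR q 0.0124). It was not called for B16F10-bearing against YUMM3.3-bearing spleen (NES 0.78, FDR q 0.892). YUMM3.3 against B16F10 cells gave 1.58, just outside the threshold at a deposited FDR q of 0.0524.

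The scores of this set had the same sign as those of FISCHER_G2_M_CELL_CYCLE, a set of genes that peak in the G2 and M phases of the cell cycle, in all 7 comparisons. In the authors' deposited tables the NES of the FISCHER set was 1.87 for B16F10-bearing against healthy bone marrow, -2.17 for YUMM3.3-bearing against healthy bone marrow and 2.41 for B16F10-bearing against YUMM3.3-bearing bone marrow. In spleen it was 2.58 for B16F10-bearing and 3.24 for YUMM3.3-bearing against healthy mice, and 1.10 for B16F10-bearing against YUMM3.3-bearing mice, and between the lines it was 2.04. Whether cell cycle genes carry the KAMMINGA score was not tested, since the tables list no member genes.

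LU_EZH2_TARGETS_UP (203 genes in the myeloid tables), genes that rose when EZH2 was knocked down in human ovarian cancer cells, was also called in 5 comparisons. Its deposited NES was 1.84 for B16F10-bearing against healthy bone marrow (FDR q 0.00821) and 2.59 for YUMM3.3-bearing against healthy bone marrow (FDR q 0), the highest target set in each. It was the lowest target set for B16F10-bearing against YUMM3.3-bearing bone marrow, with a deposited NES of -2.38 (FDR q 0). In spleen it was 1.64 for B16F10-bearing against healthy mice (FDR q 0.0431), -0.85 for YUMM3.3-bearing against healthy mice (FDR q 0.836) and 1.70 for B16F10-bearing against YUMM3.3-bearing mice (FDR q 0.0400). Between the lines it was 0.96 (FDR q 0.660).

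LU_EZH2_TARGETS_DN (306 genes in the myeloid tables), the genes that fell in the same knockdown, ran the other way in YUMM3.3-bearing mice. In the deposited tables its NES was -2.30 for YUMM3.3-bearing against healthy bone marrow (FDR q 0.000148) and 2.20 for B16F10-bearing against YUMM3.3-bearing bone marrow (FDR q 0.000387). In YUMM3.3-bearing against healthy spleen it was called higher at 1.59 (FDR q 0.0409). It was not called for B16F10-bearing against healthy mice in bone marrow (NES -1.02) or spleen (NES 1.08), for B16F10-bearing against YUMM3.3-bearing spleen (NES -1.17) or between the lines (NES 1.33). In YUMM3.3-bearing against healthy bone marrow the sets of both directions were therefore called, with opposite signs.

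Of the sets for loss of PRC1 components, 2 were called between the lines. WIEDERSCHAIN_TARGETS_OF_BMI1_AND_PCGF2 (49 genes), from knockdown of both proteins in medulloblastoma cells, was the highest target set for YUMM3.3 against B16F10 cells, with a deposited NES of 2.13 (FDR q 0). It had 43% of its genes in the top 5% of the ranked list, and in the 6 myeloid comparisons it was not called (NES -1.29 to 1.36). DOUGLAS_BMI1_TARGETS_UP (464 genes), from BMI1 knockdown in Ewing sarcoma cells, was higher in YUMM3.3 than in B16F10 cells at a deposited NES of 1.61 (FDR q 0.0405) and was called in no myeloid comparison. DOUGLAS_BMI1_TARGETS_DN had a deposited NES of -1.74 for YUMM3.3-bearing against healthy bone marrow (FDR q 0.0332) and 1.76 for B16F10-bearing against YUMM3.3-bearing bone marrow (FDR q 0.0284). Its other 5 values lay between -1.12 and 1.24 and none was called.

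PASINI_SUZ12_TARGETS_UP (89 genes in the myeloid tables), genes higher in mouse embryonic stem cells that lack SUZ12, was called in no comparison (deposited NES -1.03 to 1.25). PASINI_SUZ12_TARGETS_DN (275 genes), lower in those cells, was called higher in YUMM3.3 than in B16F10 cells (deposited NES 2.21, FDR q 0). Its myeloid values lay between -1.56 and 1.35, and none was called. KONDO_EZH2_TARGETS (182 genes in the myeloid tables) was called in no comparison (deposited NES -1.27 to 1.35).

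Of the 3 sets named for other histone marks, ACEVEDO_LIVER_CANCER_WITH_H3K9ME3_DN alone was called. In the deposited tables its NES was 1.62 for B16F10-bearing and 1.88 for YUMM3.3-bearing against healthy bone marrow, -1.67 for B16F10-bearing against YUMM3.3-bearing bone marrow and 2.12 for YUMM3.3-bearing against healthy spleen. ACEVEDO_LIVER_CANCER_WITH_H3K27ME3_DN, the remaining set with a DN name, was called in no comparison. Its own deposited NES was -1.18 for B16F10-bearing against healthy bone marrow, 1.52 for YUMM3.3-bearing against healthy bone marrow and -1.62 for B16F10-bearing against YUMM3.3-bearing bone marrow, where its FDR q of 0.0518 lay just outside the threshold. In spleen and between the lines it lay between 0.92 and 1.29. Of the mark sets not named above, none was called in any comparison.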

How the data were processed

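RNA was measured in 20 mouse libraries, grouped by their labels for tissue, tumour status and cell type. Per the submitters' processing notes, the tools were STAR 2.7.1a, DESeq2 1.22.2, featureCounts 1.6.0 and FastQC 0.11.8, and the build was mm10, with no roles stated. Analysed here were 14 gene set enrichment reports, 1 per direction of 7 comparisons. A deposited row holds, per the file headers, a set's size, enrichment score, normalised enrichment score (NES), rank at the maximum and leading edge. The deposited p-values are a nominal p, an FDR q-value and a family-wise (FWER) p, per the file headers. The kind of permutation is not stated. The smallest nonzero nominal p was 0.00103, below what relabelling libraries can give (0.05 with 3 against 3, 0.1 with 3 against 2, 0.167 with 2 against 2). Depth is unknown, and neither intervals nor tests across libraries could be computed.

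Python 3.11.15 with pandas 2.3.3 joined the reports and signed NES. Each myeloid report was read as sets higher in its first-named group, and the cell line reports by their up and down labels. The sign deposited with NES was not used. Over 3883 sets, NES of B16F10 against YUMM3.3 correlated with the difference of both against healthy at r = 0.720 in bone marrow and 0.767 in spleen. A joint reversal would not be seen. The parser was tested on made-up reports with known answers.

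Values are printed for the pathway set, target sets called in at least 2 comparisons, the highest and lowest target set of each comparison, and names ending in DN. Sets called once were also named. The sets and comparison lists were chosen with earlier results of these data known. The neural, fibroblast and CpG groupings, and the lymphocyte and cell cycle sets, were picked after values were seen. In the histone gene list a name pattern also took REACTOME_SUMOYLATION_OF_DNA_METHYLATION_PROTEINS, which is no histone gene set and is left out of the 14; the split of the 14 into 10 and 4 was made after values were seen. Alternatives were other thresholds, a size range, DN names kept and a misspelt H3K27 set added.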

Additional observations from a re-analysis of the deposited data

Results flagged for a closer look

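For 9 results B16F10-bearing and YUMM3.3-bearing mice had NES of opposite sign against the same healthy mice. In each, the authors' deposited direct comparison of B16F10-bearing against YUMM3.3-bearing mice was called. They were 7 of 35 sets in bone marrow, or 20%, against 324 of all 3883 sets, or 8.34%. In spleen they were 2 of 35, or 5.71%, against 345 of 3883, or 8.88%. The sets share genes and the comparisons share libraries, and the differences were not tested across animals.

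In bone marrow KAMMINGA_EZH2_TARGETS had NES of 1.58 in B16F10-bearing and -1.72 in YUMM3.3-bearing mice, each against healthy mice, and 1.87 in the direct comparison. The 6 others in bone marrow were mark sets, negative in B16F10-bearing and positive in YUMM3.3-bearing mice against healthy mice. Their NES for B16F10-bearing against YUMM3.3-bearing bone marrow was -1.89 for MEISSNER_BRAIN_HCP_WITH_H3K27ME3, -1.89 for MEISSNER_NPC_HCP_WITH_H3K27ME3 and -1.86 for MEISSNER_NPC_HCP_WITH_H3K4ME2_AND_H3K27ME3. It was -1.87 for MIKKELSEN_NPC_HCP_WITH_H3K27ME3, -1.83 for MIKKELSEN_MCV6_HCP_WITH_H3K27ME3 and -1.77 for MIKKELSEN_MEF_ICP_WITH_H3K27ME3.

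In spleen LU_EZH2_TARGETS_UP had 1.64 in B16F10-bearing and -0.85 in YUMM3.3-bearing mice against healthy mice, and 1.70 in the direct comparison. MIKKELSEN_MEF_LCP_WITH_H3K27ME3 had 1.75 in B16F10-bearing and -1.53 in YUMM3.3-bearing mice against healthy mice, and 1.92 in the direct comparison.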

How the results depend on the processing

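The 14 counts of called target sets were recomputed under 5 settings, and 42 of the 70 values stayed within 1.5 times the main count. Counts of 0 that stayed 0 are among the 42. At FDR q below 0.25 the counts were 10 lower for B16F10-bearing against healthy bone marrow, 10 higher for YUMM3.3-bearing against healthy bone marrow and 16 lower for B16F10-bearing against YUMM3.3-bearing bone marrow. In spleen they were 5 higher for B16F10-bearing and 7 lower for YUMM3.3-bearing against healthy mice, and 6 higher for B16F10-bearing against YUMM3.3-bearing mice. Between the lines they were 13 higher and 3 lower. Over all sets the same threshold gave, in the same order, 674, 774 and 695 of 3883 in bone marrow. It gave 1347, 969 and 1103 of 3883 in spleen, and 1372 higher and 144 lower of 3871 between the lines. In spleen these target counts, out of 30, were thus a smaller share than that of all sets. For the other settings the share of all sets was not computed. At FWER p below 0.05 B16F10-bearing against healthy bone marrow had 0 higher and 0 lower. YUMM3.3-bearing against healthy bone marrow had 1 higher and 0 lower, B16F10-bearing against YUMM3.3-bearing bone marrow had 0 higher and 1 lower, and the lines had 1 higher and 0 lower. In spleen B16F10-bearing against healthy mice had 1 higher, YUMM3.3-bearing against healthy mice 0 lower, and B16F10-bearing against YUMM3.3-bearing mice 0 higher. With sets of 25 to 200 genes alone, a setting with fewer sets, the counts were 1 higher for B16F10-bearing and 1 higher for YUMM3.3-bearing against healthy bone marrow, 2 lower for B16F10-bearing against YUMM3.3-bearing bone marrow and 3 higher between the lines. In spleen that setting gave 0 lower for YUMM3.3-bearing against healthy mice and 1 higher for B16F10-bearing against YUMM3.3-bearing mice. With DN names kept, 3 were lower for YUMM3.3-bearing against healthy bone marrow, 3 higher for B16F10-bearing against YUMM3.3-bearing bone marrow and 2 higher for YUMM3.3-bearing against healthy spleen. Adding the set whose name has H3K27 misspelt, an alternative chosen after seeing the data, left all 14 counts as they were. That set was called in no comparison, so it could not change a count, and these 14 values are part of the 42. The 7 target-set medians kept their direction in all 35 alternatives. The median of all sets had the opposite direction in bone marrow for B16F10-bearing against healthy (0.96) and against YUMM3.3-bearing mice (0.72). Elsewhere it had the same direction: 0.74 for YUMM3.3-bearing against healthy bone marrow and 1.08 between the lines. In spleen it was 1.09 for B16F10-bearing and -0.69 for YUMM3.3-bearing against healthy mice, and 1.04 for B16F10-bearing against YUMM3.3-bearing mice. With 1 set per source the target-set median in bone marrow was -0.86 for B16F10-bearing against healthy mice (main -1.14). It was 1.01 for YUMM3.3-bearing against healthy mice (main 1.16) and -0.92 for B16F10-bearing against YUMM3.3-bearing mice (main -1.34). In spleen, in the same order, it was 1.12 (main 0.88), -1.07 (main -1.07) and 1.13 (main 0.99), and between the lines 1.41 (main 1.13).

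No paired analysis was possible because each deposited value stands for a whole comparison, and leaving out a library could not be run for the same reason.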
